A study of Saccharomyces cerevisiae with 12 samples.

Results

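The genes described are 48 genes of amino acid biosynthesis in budding yeast (Saccharomyces cerevisiae), found by systematic name among the 6465 gene intervals of the series. They comprise 7 genes for arginine, 6 for histidine, 3 for leucine, 7 for isoleucine and valine, 5 for lysine, 10 for the aromatic amino acids, 5 for threonine, 2 for asparagine, 2 for glutamine and glutamate, and GCN4. HIS3, LEU2, TRP1 and LYS2 were left out because they are common marker genes that laboratory strains lack or carry on constructs. Newly synthesized RNA was measured by SLAM-seq, in which cells take up 4-thiouracil, the RNA is alkylated, and incorporated bases appear as T>C conversions in sequencing reads. A read with at least 2 such conversions is called a T>C read and stands for new RNA. All cells grew in YPD, a rich medium, and were treated for 25 min before 4 min of labelling at 5 mM 4-thiouracil. Strain RDY73, the control strain, expresses the auxin receptor OsTIR1 from the GPD1 promoter (HIS3 marker) in the BY4705 background, and its Bdf1 and Bdf2 carry 3xV5-mAID degron tags (URA3 and KanMX markers). Bdf1 and Bdf2 are the BET proteins of yeast, bromodomain proteins that bind acetylated histones and promote transcription by RNA polymerase II. Strain RDY388, the ET strain, is RDY73 with pJR15 integrated at TRP1, which drives the extra-terminal (ET) domain of Bdf1 from the GPM1 promoter fused to 3xV5 and to a nuclear localization signal taken from Rpl25. Each strain received either DMSO, the solvent, or 1 mM IAA (auxin, which triggers loss of both degron-tagged proteins), with 3 libraries a group that the labels call biological replicates. All 4 groups therefore carry the degron alleles and OsTIR1, and no group is untreated or free of tags.

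Cells build most amino acids from intermediates of central metabolism through dedicated pathways whose first enzymes are commonly inhibited by the end product. In budding yeast many of these genes share the activator Gcn4, a bZIP protein that binds TGACTCA, and starvation for any of several amino acids raises them together (general amino acid control). GCN4 itself is controlled largely at translation, through short upstream reading frames and the kinase Gcn2. Single pathways add their own controls, such as repression of arginine genes by the ArgR-Mcm1 complex when arginine is present and activation of leucine and lysine genes by Leu3 and Lys14.

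Promoter sequence is given for 3 arginine genes whose T>C reads were higher after depletion relative to other genes (ARG1, ARG3 and ARG4) and for 3 genes that fell in a strain (ARG8, TRP3 and HIS7), so that genes of both directions can be read side by side. Each line gives 150 bases, from 250 to 101 bases before the start codon, read 5′ to 3′ on the coding strand from the R64 genome (RefSeq, whose gene symbols are used), and capitals mark TGACTC or its reverse complement GAGTCA.
ARG1 (YOL058W), chrXV:218961-219110, plus strand: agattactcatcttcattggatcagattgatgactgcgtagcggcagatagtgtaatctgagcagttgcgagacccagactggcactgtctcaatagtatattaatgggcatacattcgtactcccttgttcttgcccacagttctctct
ARG3 (YJL088W), chrX:268549-268698, plus strand: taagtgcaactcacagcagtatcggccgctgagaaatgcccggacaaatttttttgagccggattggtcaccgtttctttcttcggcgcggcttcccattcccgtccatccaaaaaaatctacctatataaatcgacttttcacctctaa
ARG4 (YHR018C), chrVIII:141503-141652, minus strand: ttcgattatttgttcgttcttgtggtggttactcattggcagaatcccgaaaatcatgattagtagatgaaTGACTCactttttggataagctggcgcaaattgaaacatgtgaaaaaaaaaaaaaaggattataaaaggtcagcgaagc
ARG8 (YOL140W), chrXV:58509-58658, plus strand: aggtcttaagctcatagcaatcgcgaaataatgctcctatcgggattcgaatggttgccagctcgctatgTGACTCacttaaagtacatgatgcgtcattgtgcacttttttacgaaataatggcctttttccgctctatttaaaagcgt
TRP3 (YKL211C), chrXI:38254-38403, minus strand: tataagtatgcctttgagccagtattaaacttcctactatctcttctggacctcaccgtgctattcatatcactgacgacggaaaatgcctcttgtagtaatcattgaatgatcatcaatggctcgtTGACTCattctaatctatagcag
HIS7 (YBR248C), chrII:716566-716715, minus strand: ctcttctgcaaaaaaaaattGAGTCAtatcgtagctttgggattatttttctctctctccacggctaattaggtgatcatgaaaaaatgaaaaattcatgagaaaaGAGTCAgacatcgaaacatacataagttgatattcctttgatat
Both strands of the window from 250 bases before to 50 after each start codon were searched. TGACTC was present in 24 of the 48 promoters (50.0%), against 7.98% of 6001 promoters of coding genes, and the longer TGACTCA, which contains it, in 18 (37.5%) against 2.73%. TATAAA was present in 24 of 48 (50.0%) against 45.2%. TCCNNNGGA, the Lys14 motif, was found in LEU9, LYS9 and LYS12 (6.25% against 3.40%). In ARG4 and ARG8 the motif lay 179 and 180 bases before the start codon, while ARG1, ARG3, CPA1 and GCN4 had no TGACTC in this window. The genes printed above are a selection. Among other genes higher in both strains, LEU4, ILV5, ASN1 and HIS1 had TGACTC in the window, and LYS20, HOM3 and GLN1 did not. Among other genes that fell in a strain, THR4 and TRP4 had it, and HOM6, LYS21 and ARO7 did not.

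The libraries held 6279282 to 11395597 S. cerevisiae reads, of which 90321 to 330857 were T>C reads, and 445036 to 722822 reads of the Schizosaccharomyces pombe cells added as a spike-in. The 48 genes took 42188 to 74776 reads and 1169 to 3025 T>C reads a library, so many single genes rest on few T>C reads. In cells given IAA, the T>C share of all S. cerevisiae reads was 1.37% ± 0.0726 (SD, n = 3) against 2.65% ± 0.0506 with DMSO in the control strain, and 1.73% ± 0.0959 against 3.09% ± 0.286 in the ET strain. TRP1, the marker of the ET construct, had 2 to 4 T>C reads a library in the control strain with DMSO and 43 to 76 in the ET strain, as its construct predicts. Of the 48 intervals, each with 250 bp added past the gene end, 9 overlap another gene, and at most 1.34% of a gene's reads mapped to several places. BDF1 was 5.58-fold higher in the ET strain with DMSO (adjusted p = 1.2e-31), whose construct ends in the BDF1 terminator, and depletion acts on the proteins, so BDF1 and BDF2 reads do not check it.

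Bdf1/2 depletion left the new RNA of the amino acid genes higher, relative to most other genes, and the arginine genes highest among them. The comparison asks how each gene's T>C reads changed between DMSO and IAA within a strain. Counts were scaled by size factors from all S. cerevisiae reads, which take out a change in total RNA that most genes share. The edgeR test required a T>C read in each of the 12 libraries, a condition met by 3677 genes and by 42 of the 48. On this scale, which is relative to the typical S. cerevisiae transcript, 16 of the 42 rose and 3 fell in the control strain, where 14.3% of all tested genes rose and 28.7% fell. The ET strain had 15 rises and 5 falls, against 12.1% and 30.2% of tested genes. The median log2 change of the 42 was 0.56 in the control strain and 0.35 in the ET strain, against -0.46 and -0.48 over all tested genes. The 13 genes that rose in both strains included ARG1, ARG3, ARG4, CPA1, HIS1, LEU4, ILV5, LYS20, HOM3, ASN1, GLN1 and GCN4, and the 13 are 81.2% of those that rose in the control strain and 86.7% of those that rose in the ET strain. No gene fell in both. Between DMSO and IAA, 23 of the 42 did not overlap in the control strain and 26 in the ET strain, against 52.3% and 52.0% of tested genes. The falls depended on the method, since DESeq2 called 1 and 2 in the control and ET strains, and TMM scaling of the T>C counts 0 and 0 where it called 14.1% and 11.4% of tested genes lower. Leaving out single libraries in turn, 10 of the 16 rises and 0 of the 3 falls in the control strain held in every fit, and 12 of the 15 rises and 1 of the 5 falls (ARO7) in the ET strain. The libraries concerned are named with each gene.

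Per S. pombe read most of the 42 lost new RNA, by less than most other genes did. In bulk samples fewer cells and less RNA a cell cannot be told apart, and this applies to every value per S. pombe read. With that scaling 1 of the 42 rose and 24 fell in the control strain, against 0.381% and 81.7% of tested genes. The ET strain had 1 rise and 27 falls, against 0.218% and 83.8%. Sums of S. cerevisiae reads as the scale gave 2 rises and 22 falls in the control strain, against 0.952% and 79.7% of tested genes, and 3 and 21 in the ET strain, against 0.789% and 79.6%. With S. pombe reads the median log2 change was -0.77 against -1.78 for all tested genes in the control strain, and -0.82 against -1.64 in the ET strain. The median percentile of the 42 among tested genes on the size-factor scale was 82.0 in the control strain and 80.8 in the ET strain, and a change of scale, which shifts all genes by about the same amount, leaves such a rank nearly as it was by construction. Below, "rose" and "fell" without a further word refer to the size-factor scale, and the value per S. pombe read stands beside it for most genes named.

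**Figure D1:**
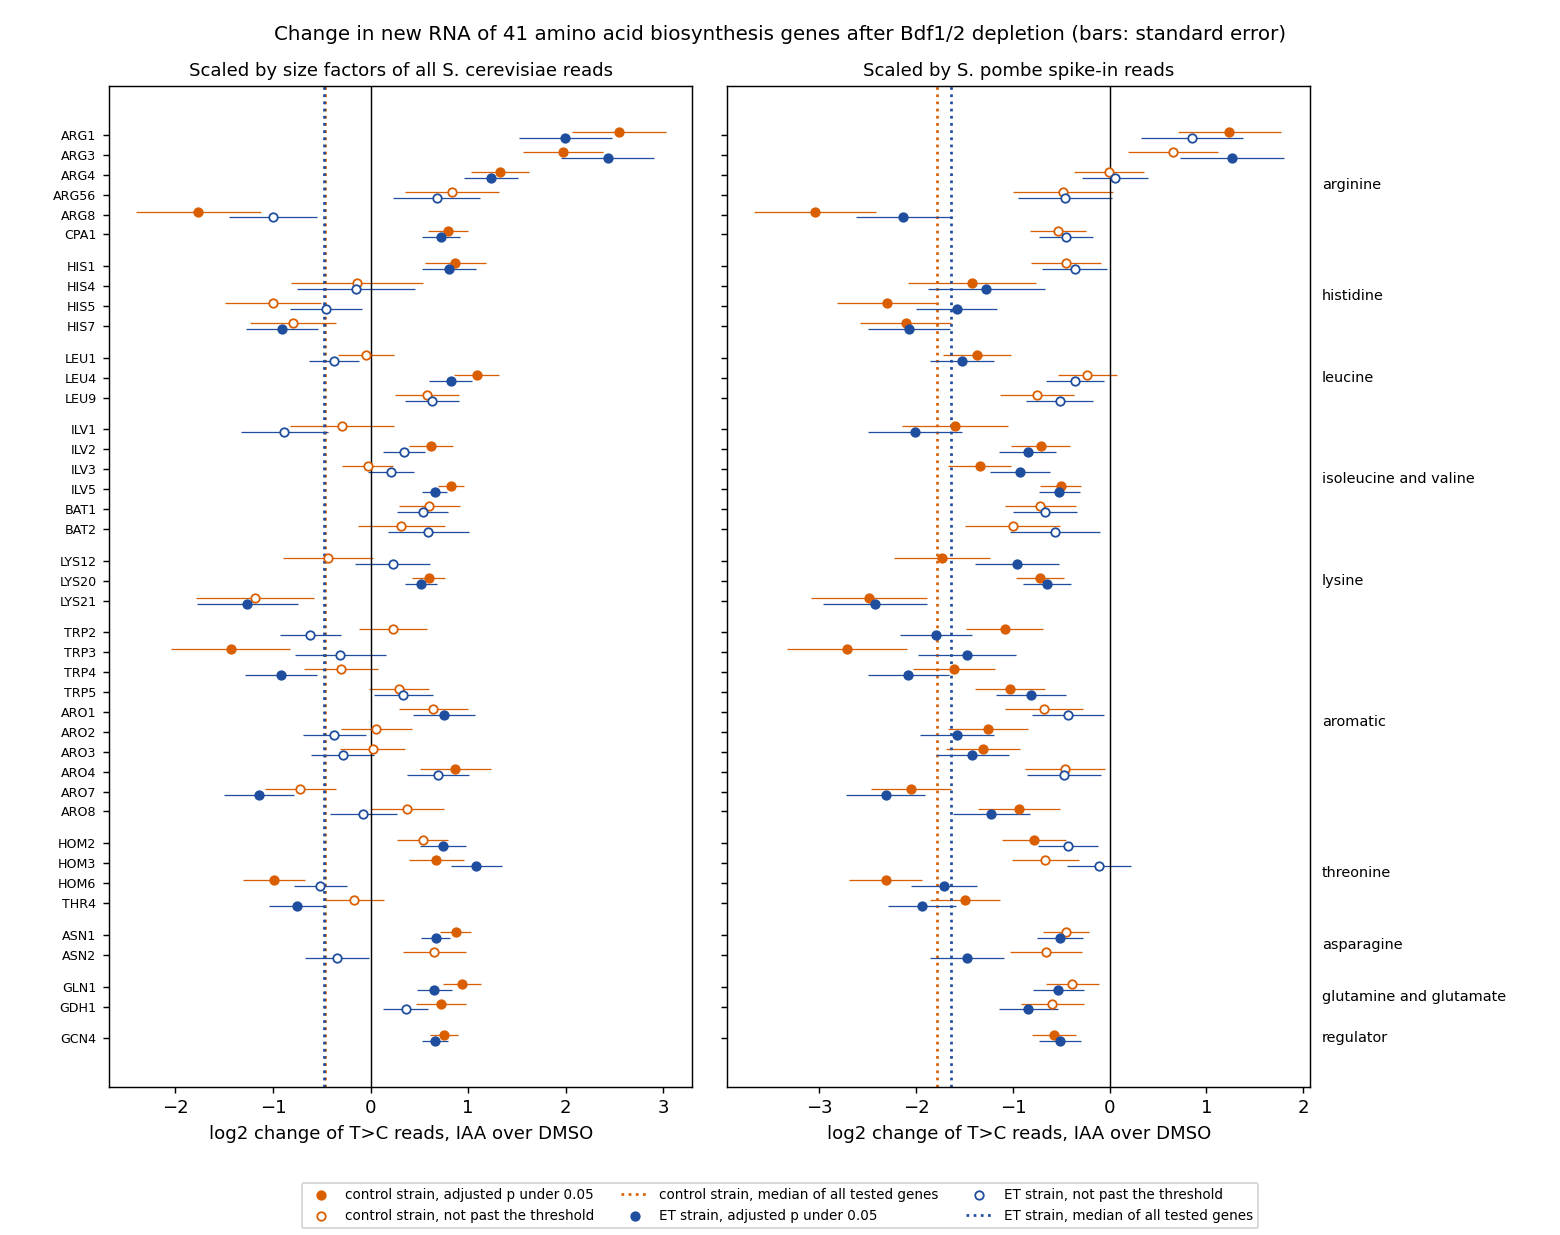
Log2 change of T>C reads between IAA and DMSO (horizontal axis) for 41 of the tested genes, grouped by pathway, in the control strain (orange) and the ET strain (blue), with standard errors, filled where the adjusted p was under 0.05. The left panel uses size factors and the right panel S. pombe reads, and most genes lie to the right of the dotted medians of all tested genes in both, while of the genes drawn only ARG1 and ARG3 lie above 0 in both strains and panels, with ARG4 close to 0 on the right.

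The 6 genes that were not tested had no T>C read in at least 1 library. HIS6 (YIL020C), an isomerase of the histidine pathway, had 16, 10 and 12 T>C reads in the control strain with DMSO and 1, 0 and 0 with IAA. Its counts in the ET strain were 9, 15 and 16 with DMSO and 7, 6 and 2 with IAA. LYS4 (YDR234W), homoaconitase, had 9, 8 and 14 and then 0, 2 and 1 in the control strain. THR1 (YHR025W), homoserine kinase, had 13, 9 and 10 and then 2, 0 and 2. ILV6, LYS9 and HIS2 also had 0 T>C reads in a library. On the size-factor scale the mean with IAA was below that with DMSO for 5 of the 6 in the control strain, where the ratio for HIS2 was 1.04, and for 6 of 6 in the ET strain. Per S. pombe read it was below for 6 of 6 in both strains, as it was for 45 and 44 of all 48 in the control and ET strains. Without the filter, over 48 genes and 6214 in all, 14 rose and 3 fell in the control strain with a median of 0.30 (all genes -0.80), and 14 rose and 3 fell in the ET strain with a median of 0.22 (all genes -0.66). In that fit 8.22% of genes rose and 25.5% fell in the control strain, and 6.71% and 23.8% in the ET strain. HIS6 fell in the control strain there (-3.58 ± 1.03, adjusted p = 0.0035).

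Of the 7 arginine genes, 5 rose in each strain, among them ARG1, ARG3, ARG4 and CPA1 (YOR303W), and the median percentile of the 7 among all tested genes was 96.6 in the control strain and 98.2 in the ET strain. ARG1 encodes argininosuccinate synthetase. ARG1 had 3.15, 2.53 and 5.10 normalised T>C reads with DMSO and 17.4, 26.7 and 20.4 with IAA in the control strain. For ARG1 the ET strain gave 3.45, 3.82 and 3.20 with DMSO and 13.1, 18.7 and 11.2 with IAA. The groups did not overlap in either strain, and the count behind these values was 4 to 7 T>C reads a library with DMSO and 9 to 15 with IAA. The log2 change was 2.55 ± 0.48 (adjusted p = 6.9e-06) in the control strain and 1.99 ± 0.48 (adjusted p = 0.00050) in the ET strain, at percentiles 99.9 and 99.7. Per S. pombe read ARG1 also rose in the control strain, 1.24 ± 0.53 (adjusted p = 0.026), with 0.85 ± 0.53 (adjusted p = 0.12) in the ET strain.

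ARG3 encodes ornithine carbamoyltransferase, which makes citrulline. ARG3 had 8.81, 5.68 and 5.83 normalised T>C reads with DMSO and 22.2, 26.7 and 32.4 with IAA in the control strain. For ARG3 the ET strain gave 2.07, 2.19 and 4.48 with DMSO and 21.9, 12.4 and 14.6 with IAA. Again every IAA library lay above every DMSO library of its strain. The log2 change was 1.97 ± 0.41 (adjusted p = 4.6e-05) in the control strain and 2.43 ± 0.48 (adjusted p = 2.9e-05) in the ET strain, and per S. pombe read it was 0.65 ± 0.46 (adjusted p = 0.18) and 1.26 ± 0.54 (adjusted p = 0.024).

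ARG4, argininosuccinate lyase, catalyses the last step. ARG4 had 13.2, 17.0 and 27.0 normalised T>C reads with DMSO and 41.2, 44.6 and 56.2 with IAA in the control strain. For ARG4 the ET strain gave 15.9, 18.6 and 21.1 with DMSO and 49.6, 42.3 and 40.4 with IAA. The groups did not overlap, and ARG4 rose by 1.32 ± 0.29 (adjusted p = 0.00013) and 1.23 ± 0.28 (adjusted p = 0.00023), whereas per S. pombe read it measured -0.01 ± 0.36 and 0.06 ± 0.34. CPA1, the small subunit of the arginine-specific carbamoyl phosphate synthetase, rose by 0.79 ± 0.21 (adjusted p = 0.0012) and 0.72 ± 0.20 (adjusted p = 0.0023), against -0.53 and -0.45 per S. pombe read, and 194 bp of its interval overlap that of YOR302W on the same strand. ARG56 (YER069W, also written ARG5,6), whose product is cleaved into the kinase and the reductase of the acetylglutamate steps, did not pass the test, with 0.83 ± 0.48 (adjusted p = 0.15) and 0.68 ± 0.45 (adjusted p = 0.20) and a reversed sign per S. pombe read (-0.48 and -0.46).

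ARG8, the mitochondrial acetylornithine aminotransferase, moved against the other arginine genes. ARG8 had 10.1, 14.5 and 6.56 normalised T>C reads with DMSO and 1.58, 4.46 and 3.41 with IAA in the control strain. For ARG8 the ET strain gave 20.7, 8.74 and 14.1 with DMSO and 2.92, 8.71 and 8.97 with IAA. The raw counts were 16, 23 and 9 with DMSO and 1, 2 and 2 with IAA in the control strain, where the groups did not overlap, while the ET groups overlapped (8.74 in a DMSO and 8.97 in an IAA library). ARG8 fell by 1.76 ± 0.64 on the log2 scale in the control strain (adjusted p = 0.019), a call lost without library control DMSO B or control IAA A or C (adjusted p up to 0.12), and measured -0.998 ± 0.45 (adjusted p = 0.062) in the ET strain. Per S. pombe read it fell in both, -3.05 ± 0.63 (adjusted p = 4.2e-06) and -2.14 ± 0.49 (adjusted p = 2.5e-05). The promoter window searched held TGACTCA for ARG8 and not for ARG1, and bases further upstream were not searched.

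**Figure D2:**
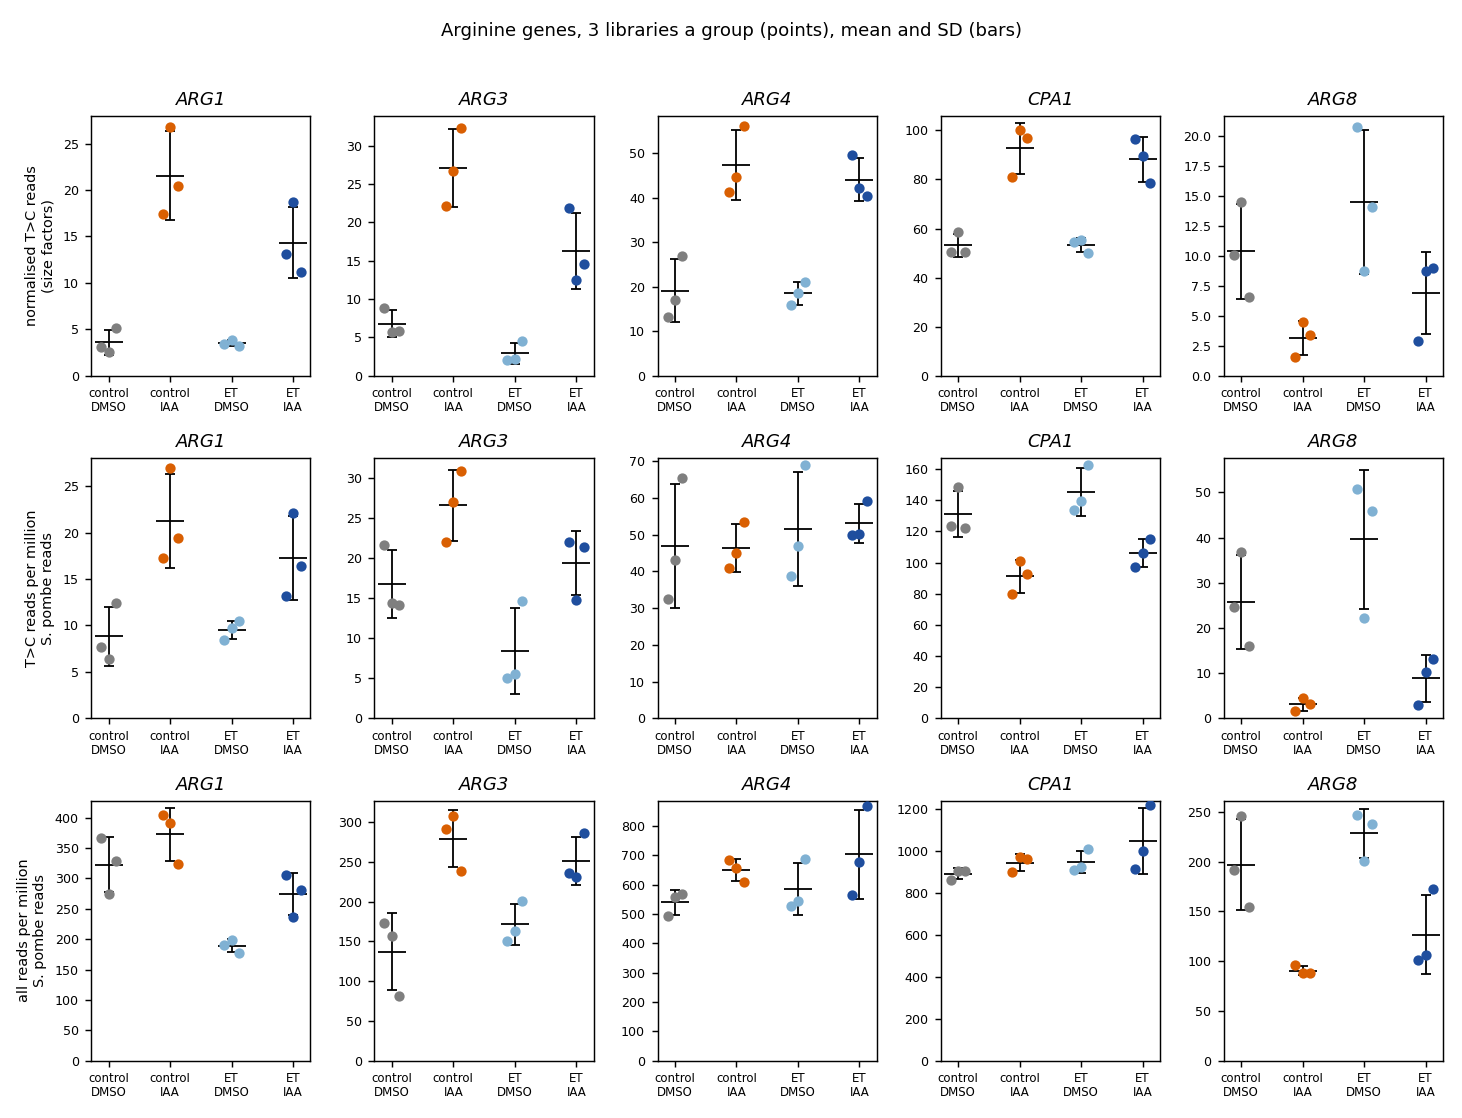
T>C reads by size factors (top), T>C reads per 1000000 S. pombe reads (middle) and all reads per 1000000 S. pombe reads (bottom) for 5 arginine genes, with 3 libraries a group as points and the mean and SD as bars. Every IAA point of ARG1 and ARG3 lies above the DMSO points of its strain in the top and middle rows, CPA1 is higher with IAA in the top row and lower in the middle row, and the means of ARG8 are lower with IAA in all rows.

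The histidine genes were split. HIS1 (YER055C), ATP phosphoribosyltransferase, which catalyses the first step, was the only one of the 4 tested that rose. HIS1 had 25.8, 17.7 and 16.8 normalised T>C reads with DMSO and 15.8, 42.4 and 54.5 with IAA in the control strain. For HIS1 the ET strain gave 24.2, 19.7 and 30.1 with DMSO and 35.0, 43.5 and 49.4 with IAA. The control IAA replicate A, at 15.8, lay below the DMSO libraries and the others above them, while the ET groups did not overlap. HIS1 rose by 0.87 ± 0.31 (adjusted p = 0.019) in the control strain, a call lost without library control DMSO B or C or control IAA B or C (adjusted p up to 0.36), and by 0.81 ± 0.28 (adjusted p = 0.013) in the ET strain, a call lost without library ET DMSO B or ET IAA C (adjusted p up to 0.078), and its change per S. pombe read was -0.45 and -0.36. HIS7, which makes imidazole glycerol phosphate, went the other way. HIS7 had 13.2, 17.0 and 20.4 normalised T>C reads with DMSO and 6.34, 11.1 and 11.9 with IAA in the control strain. For HIS7 the ET strain gave 23.5, 19.1 and 21.8 with DMSO and 10.2, 17.4 and 6.73 with IAA. No IAA library reached a DMSO library of its strain. HIS7 fell in the ET strain (-0.90 ± 0.37, adjusted p = 0.039), a call lost without library ET DMSO A or C or ET IAA A or C (adjusted p up to 0.24), and measured -0.80 ± 0.44 (adjusted p = 0.13) in the control strain, with -2.11 and -2.08 per S. pombe read. HIS4 (YCL030C), an enzyme of several steps, and HIS5 (YIL116W), histidinol phosphate aminotransferase, passed the test in neither strain on the size-factor scale (-0.14 and -0.999 in the control strain). The median percentile of the 4 genes was 49.8 in the control strain, the middle of all tested genes, and 57.5 in the ET strain.

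Among the branched-chain genes LEU4 and ILV5 rose in both strains and ILV2 in the control strain. LEU4 (YNL104C), the main isopropylmalate synthase and the entry to leucine synthesis, had 37.8, 40.4 and 35.7 normalised T>C reads with DMSO and 63.4, 105 and 78.3 with IAA in the control strain. ET values were 35.9, 37.7 and 41.0 with DMSO and 78.8, 63.4 and 61.7 with IAA. The groups did not overlap, and the log2 change was 1.09 ± 0.23 (adjusted p = 5.9e-05) and 0.82 ± 0.22 (adjusted p = 0.0020), against -0.23 and -0.36 per S. pombe read. ILV5 (YLR355C), acetohydroxyacid reductoisomerase, had 242 to 529 T>C reads a library and rose by 0.82 ± 0.13 (adjusted p = 6.1e-08) and 0.66 ± 0.13 (adjusted p = 1.6e-05), while per S. pombe read it fell (-0.50 ± 0.21, adjusted p = 0.023 and -0.52 ± 0.21, adjusted p = 0.018). ILV2 (YMR108W), the catalytic subunit of acetolactate synthase, rose by 0.62 ± 0.23 (adjusted p = 0.021) in the control strain, a call lost without library control DMSO A or C or control IAA C (adjusted p up to 0.11), measured 0.34 ± 0.21 (adjusted p = 0.18) in the ET strain, and fell per S. pombe read in both (-0.71 and -0.85). LEU1 (YGL009C), isopropylmalate isomerase, ILV1 (YER086W), threonine deaminase, and ILV3 (YJR016C), dihydroxyacid dehydratase, passed the test in neither strain, with log2 changes from -0.88 for ILV1 to 0.21 for ILV3, both in the ET strain. All 3 fell per S. pombe read in both strains, by 0.93 to 2.01 on the log2 scale.

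In lysine synthesis LYS20 (YDL182W) rose in both strains and LYS21 (YDL131W) fell in the ET strain, and both encode homocitrate synthase, the first enzyme. LYS20 had 126, 107 and 96.2 normalised T>C reads with DMSO and 144, 205 and 155 with IAA in the control strain, and 115, 88.5 and 109 with DMSO and 142, 142 and 162 with IAA in the ET strain. LYS20 rose by 0.60 ± 0.17 (adjusted p = 0.0026) and 0.52 ± 0.16 (adjusted p = 0.0073), calls lost without library control IAA B (adjusted p = 0.053) and ET DMSO B (0.055), and fell per S. pombe read (-0.72 and -0.65). LYS21 had 5.04, 15.8 and 8.02 with DMSO and 3.17, 2.23 and 6.81 with IAA in the control strain, where the groups overlapped, and 11.7, 12.02 and 10.2 with DMSO and 10.2, 2.49 and 2.24 with IAA in the ET strain, where the lowest DMSO library and the highest IAA library both rounded to 10.2. LYS21 fell in the ET strain (-1.26 ± 0.52, adjusted p = 0.039), a call lost without library ET DMSO A or B or ET IAA B or C (adjusted p up to 0.21), and measured -1.18 ± 0.60 (adjusted p = 0.10) in the control strain, with falls of 2.49 and 2.42 per S. pombe read. LYS12 (YIL094C), homoisocitrate dehydrogenase, passed the test in neither strain (-0.44 and 0.23).

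Of the 10 aromatic genes, ARO4 rose and TRP3 fell in the control strain, and ARO1 rose while ARO7 and TRP4 fell in the ET strain. ARO4 (YBR249C) and ARO3 (YDR035W) encode the DAHP synthases that open the shikimate pathway, inhibited by tyrosine and phenylalanine, respectively. ARO4 rose by 0.87 ± 0.37 (adjusted p = 0.045) in the control strain, a call lost without library control DMSO A or B or control IAA A or C or ET DMSO A (adjusted p up to 0.17), and measured 0.69 ± 0.32 (adjusted p = 0.071) in the ET strain, with -0.46 and -0.47 per S. pombe read. ARO3 measured 0.02 ± 0.33 (adjusted p = 0.96) and -0.29 ± 0.32 (adjusted p = 0.47), and fell per S. pombe read (-1.31 and -1.42). ARO7 (YPR060C) is chorismate mutase, which commits chorismate to phenylalanine and tyrosine. ARO7 had 25.2, 27.8 and 23.3 normalised T>C reads with DMSO and 15.8, 4.46 and 23.8 with IAA in the control strain. For ARO7 the ET strain gave 23.5, 21.9 and 27.5 with DMSO and 11.7, 11.2 and 10.1 with IAA. The ET groups were far apart, and the control IAA libraries ran from 4.46 to 23.8 and met the DMSO libraries at 23.3. ARO7 fell in the ET strain (-1.14 ± 0.36, adjusted p = 0.0075) and measured -0.72 ± 0.36 (adjusted p = 0.099) in the control strain, with falls of 2.05 and 2.32 per S. pombe read. The ARO1 (YDR127W) protein carries out several middle steps of the pathway, and the gene rose by 0.75 ± 0.31 (adjusted p = 0.044) in the ET strain, a call lost without library ET DMSO A or B or ET IAA A or C (adjusted p up to 0.29), with -0.68 in the control strain and -0.43 in the ET strain per S. pombe read.

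The tryptophan branch leaves the same precursor through anthranilate synthase, of which TRP3 is a subunit. TRP3 had 8.81, 8.21 and 13.1 normalised T>C reads with DMSO and 1.58, 6.69 and 3.41 with IAA in the control strain, on raw counts of 14, 13 and 18 with DMSO and 1, 3 and 2 with IAA. ET values were 8.98, 10.4 and 8.97 with DMSO and 11.7, 7.46 and 4.49 with IAA and overlapped. TRP3 fell in the control strain (-1.43 ± 0.61, adjusted p = 0.048), a call lost without library control DMSO C or control IAA A or C (adjusted p up to 0.25), and measured -0.31 ± 0.46 (adjusted p = 0.59) in the ET strain. TRP4 (YDR354W), anthranilate phosphoribosyltransferase, had 22.1, 20.2 and 22.4 with DMSO and 13.1, 9.95 and 11.2 with IAA in the ET strain, where the groups did not overlap and it fell (-0.92 ± 0.37, adjusted p = 0.035), a call lost without library ET DMSO A or C or ET IAA A or B or C (adjusted p up to 0.11). TRP4 measured -0.30 ± 0.38 (adjusted p = 0.53) in the control strain. TRP2 (YER090W), the other subunit of anthranilate synthase, TRP5 (YGL026C), tryptophan synthase, ARO2 (YGL148W), chorismate synthase, and ARO8 (YGL202W), an aromatic aminotransferase, passed the test in neither strain, with log2 changes from -0.62 for TRP2 in the ET strain to 0.38 for ARO8 in the control strain. Per S. pombe read TRP2, TRP3, TRP4, TRP5, ARO2 and ARO8 fell in both strains, TRP3 by 2.72 and 1.47 and TRP4 by 1.61 and 2.08.

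**Figure D3:**
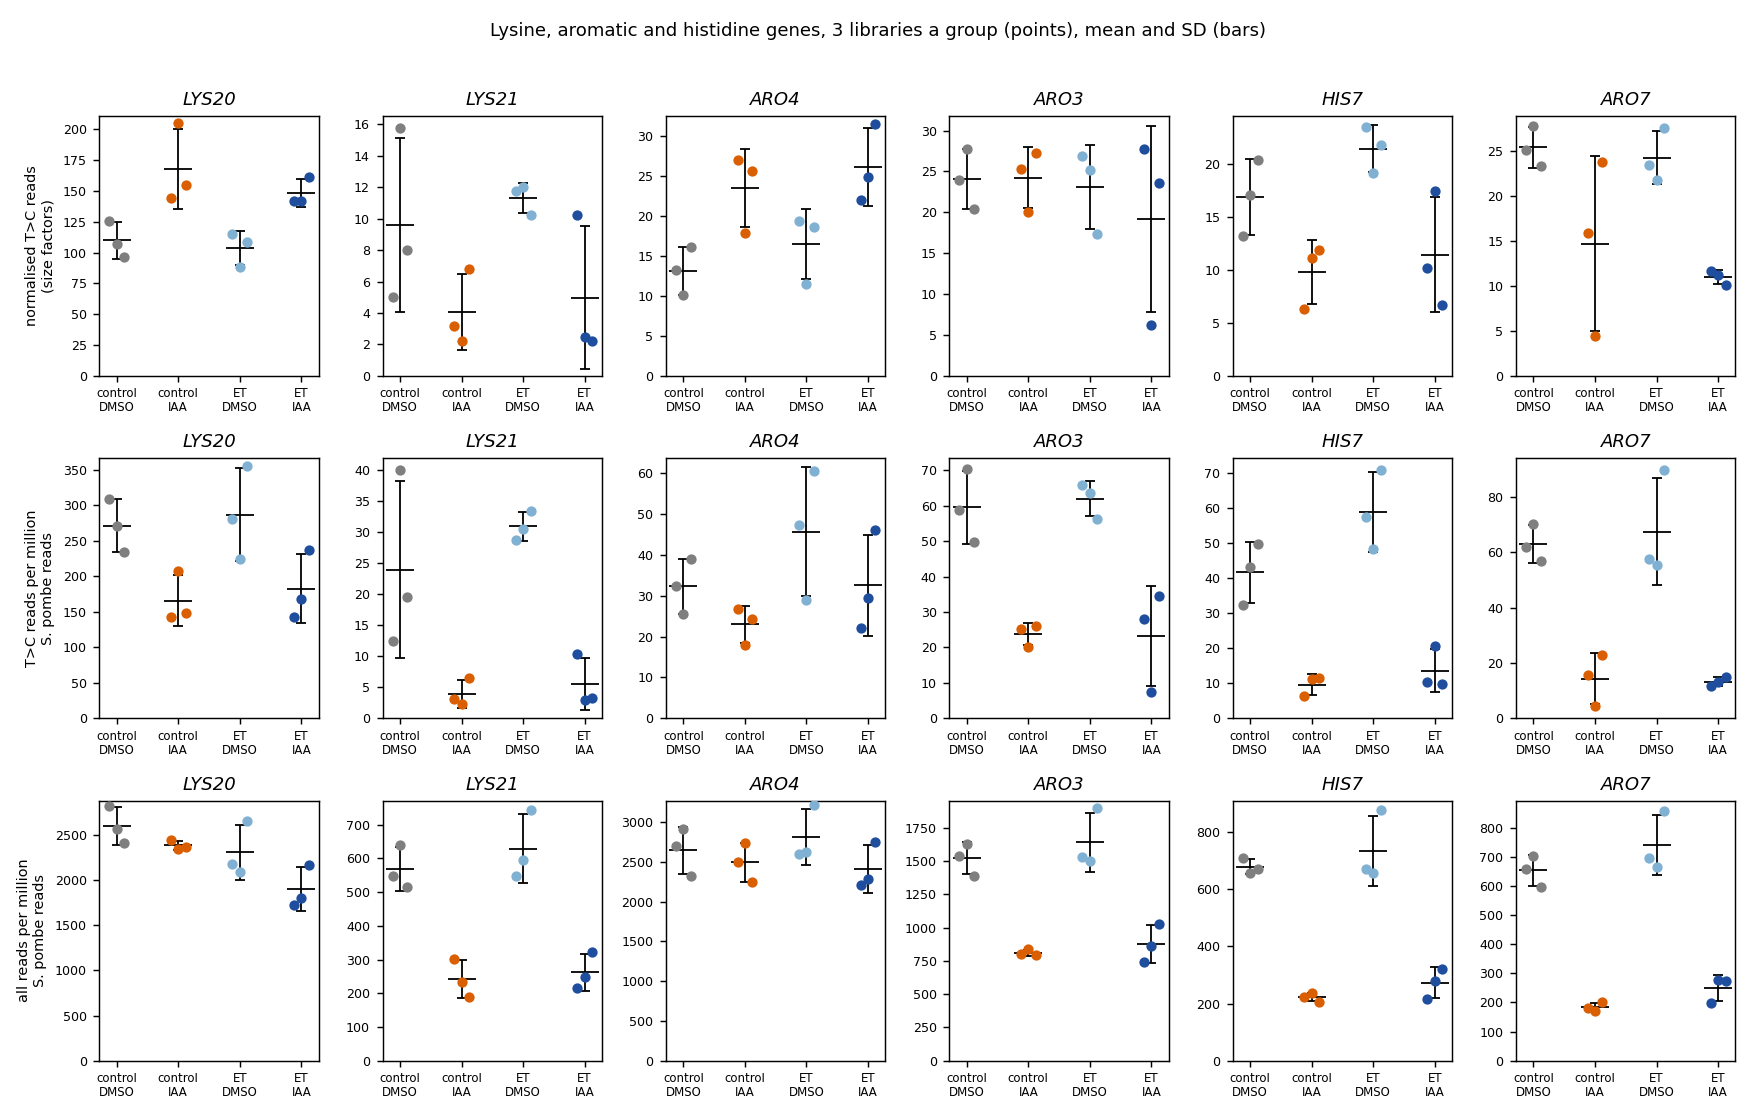
T>C reads by size factors (top), T>C reads per 1000000 S. pombe reads (middle) and all reads per 1000000 S. pombe reads (bottom) for LYS20, LYS21, ARO4, ARO3, HIS7 and ARO7 (YPR060C), with 3 libraries a group as points and the mean and SD as bars. In the bottom row LYS21, ARO3, HIS7 and ARO7 are lower in every IAA library than in every DMSO library, while those of LYS20 and ARO4 differ less.

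In the threonine pathway HOM3 rose in both strains and HOM2 in the ET strain, while HOM6 fell in the control strain and THR4 in the ET strain. HOM3 (YER052C), aspartate kinase, which opens the pathway, had 20.1, 29.0 and 30.6 normalised T>C reads with DMSO and 46.0, 31.2 and 47.7 with IAA in the control strain. ET values were 20.0, 22.4 and 25.6 with DMSO and 56.9, 52.2 and 37.0 with IAA. The groups did not overlap in either strain, and HOM3 rose by 0.67 ± 0.28 (adjusted p = 0.045) in the control strain, a call lost without library control DMSO A or B or control IAA A or C (adjusted p up to 0.18), and by 1.08 ± 0.26 (adjusted p = 0.00063) in the ET strain, with -0.66 and -0.11 per S. pombe read. HOM6 (YJR139C), homoserine dehydrogenase, had 47.8, 35.4 and 30.6 with DMSO and 14.3, 13.4 and 28.9 with IAA in the control strain, and 41.5, 36.6 and 42.3 with DMSO and 35.0, 31.1 and 19.1 with IAA in the ET strain. All IAA libraries lay below the DMSO libraries of their strain. HOM6 fell in the control strain (-0.99 ± 0.32, adjusted p = 0.0087), a call lost without library control DMSO A or control IAA A or B (adjusted p up to 0.084), measured -0.52 ± 0.27 (adjusted p = 0.11) in the ET strain, and fell per S. pombe read in both (-2.32 and -1.71). THR4 (YCR053W), threonine synthase, had 44.2, 36.1 and 33.9 with DMSO and 30.7, 27.4 and 11.2 with IAA in the ET strain, where it fell (-0.75 ± 0.29, adjusted p = 0.026), a call lost without library ET DMSO A or ET IAA C (adjusted p up to 0.32), and measured -0.17 ± 0.30 (adjusted p = 0.67) in the control strain, with -1.49 in the control strain and -1.94 in the ET strain per S. pombe read. HOM2 (YDR158W), aspartate semialdehyde dehydrogenase, rose in the ET strain (0.74 ± 0.23, adjusted p = 0.0076) and measured 0.53 ± 0.26 (adjusted p = 0.082) in the control strain, with a fall of 0.78 (adjusted p = 0.022) in the control strain and -0.43 (adjusted p = 0.19) in the ET strain per S. pombe read, and 226 bp of its interval overlap that of YDR157W on the same strand.

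ASN1 and GLN1 rose in both strains, GDH1 in the control strain and ASN2 in neither. ASN1 (YPR145W), an asparagine synthetase gene, had 104, 116 and 128 normalised T>C reads with DMSO and 219, 243 and 179 with IAA in the control strain, and 131, 123 and 152 with DMSO and 196, 238 and 211 with IAA in the ET strain. ASN1 rose by 0.87 ± 0.16 (adjusted p = 2.8e-06) and 0.67 ± 0.15 (adjusted p = 0.00021), with -0.45 and -0.51 per S. pombe read. ASN2 (YGR124W), the other synthetase, measured 0.65 ± 0.32 (adjusted p = 0.087) and -0.34 ± 0.33 (adjusted p = 0.39), with -0.66 (adjusted p = 0.093) and a fall of 1.47 (adjusted p = 0.00021) per S. pombe read. GLN1 (YPR035W), glutamine synthetase, rose by 0.94 ± 0.20 (adjusted p = 5.9e-05) and 0.65 ± 0.18 (adjusted p = 0.0022), with -0.39 and -0.53 per S. pombe read. GDH1 (YOR375C), glutamate dehydrogenase, rose by 0.72 ± 0.26 (adjusted p = 0.017) in the control strain, a call lost without library control IAA B or C (adjusted p up to 0.15), and measured 0.36 ± 0.23 (adjusted p = 0.18) in the ET strain, with -0.59 and -0.84 per S. pombe read.

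GCN4 (YEL009C), the activator gene, stood above the median of the 42 in its place among all tested genes. GCN4 had 206, 191 and 163 normalised T>C reads with DMSO and 322, 314 and 308 with IAA in the control strain. For GCN4 the ET strain gave 215, 222 and 231 with DMSO and 330.0, 362 and 362 with IAA. The replicates were close, and the groups did not overlap. GCN4 rose by 0.75 ± 0.14 (adjusted p = 4.3e-06) and 0.66 ± 0.13 (adjusted p = 3.7e-05) on the size-factor scale, at percentiles 87.2 and 89.3, and fell by 0.58 and 0.51 per S. pombe read (adjusted p = 0.013 and 0.024). SLAM-seq reads no protein, so Gcn4 itself was not measured.

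Beside GCN4, a list of 11 further regulators was examined. Of these (ARG80, ARG81, BAS1, GCN1, GCN2, GCN20, GLN3, LEU3, LYS14, PHO2 and URE2), 7 were tested, and 0 rose and 2 fell in the control strain against 14.3% and 28.7% of all tested genes, and the falls were LEU3 (-1.16 ± 0.38, adjusted p = 0.0092) and LYS14 (-1.12 ± 0.46, adjusted p = 0.040). Of the same 7, 0 rose in the ET strain and 1 fell, against 12.1% and 30.2% of all tested genes, and the fall was LEU3 (-1.30 ± 0.37, adjusted p = 0.0030). Before adjustment, p was under 0.05 with a higher value for 0 in the control strain and 0 in the ET strain. With so few genes these counts do not set the regulators apart from other genes. The median log2 change of the 7 was -0.70 and -0.55, beside -0.46 and -0.48 over all tested genes. Per S. pombe read 7 of 7 fell in both strains, where 81.7% and 83.8% of all tested genes fell. Of 12 further enzymes of these and the proline pathways, 7 were tested. ARO9, an aromatic aminotransferase, rose in both strains (1.08 ± 0.45, adjusted p = 0.043 and 1.15 ± 0.36, adjusted p = 0.0082), with -0.24 and -0.02 per S. pombe read. PRO1, glutamate kinase, fell in the control strain (-2.17 ± 0.47, adjusted p = 8.6e-05, and -3.48 per S. pombe read), and PRO3, pyrroline carboxylate reductase, and TYR1, prephenate dehydrogenase, fell in the ET strain (-1.66 ± 0.52, adjusted p = 0.0071 and -1.03 ± 0.41, adjusted p = 0.036).

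For 5 steps that a pair of isozymes shares, the ratio of the pair within each library needs no scaling between libraries, and it was compared by an exact permutation test, two-sided, with DMSO and IAA exchanged within strain (400 arrangements, smallest possible p = 0.0050, 10 comparisons adjusted together). This test was added after the gene values were seen. The log2 ratio of LYS21 to LYS20 in all reads was -2.20 ± 0.18 (SD, n = 3) with DMSO and -3.32 ± 0.31 with IAA in the control strain, and -1.88 ± 0.10 and -2.87 ± 0.13 in the ET strain. All 6 IAA libraries lay below all 6 DMSO libraries. The ratio changed in the control and ET strains by -1.55 and -1.87 for T>C reads (exact p = 0.010, adjusted 0.025) and -1.13 and -0.99 for all reads (exact p = 0.0050, adjusted 0.017). For ARO3 over ARO4 the changes were -0.82 and -1.15 for T>C reads (exact p = 0.025, adjusted 0.042) and -0.82 and -0.69 for all reads (exact p = 0.0050, adjusted 0.017). For ASN2 over ASN1 the changes were -0.22 and -0.99 for T>C reads (exact p = 0.050, adjusted 0.071) and -0.35 and -0.41 for all reads (exact p = 0.0050, adjusted 0.017). BAT2 (YJR148W), the cytosolic branched-chain aminotransferase, fell in all reads relative to BAT1 (YHR208W), the mitochondrial one, and a change in T>C reads was not detectable. The BAT2 over BAT1 changes were -0.25 and 0.05 for T>C reads (exact p = 0.57, adjusted 0.57) and -0.34 and -0.35 for all reads (exact p = 0.020, adjusted 0.040). LEU9 over LEU4 did not pass the test in either readout, with changes of -0.49 and -0.17 for T>C reads (exact p = 0.14, adjusted 0.18) and -0.17 and -0.01 for all reads (exact p = 0.25, adjusted 0.28).

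**Figure D4:**
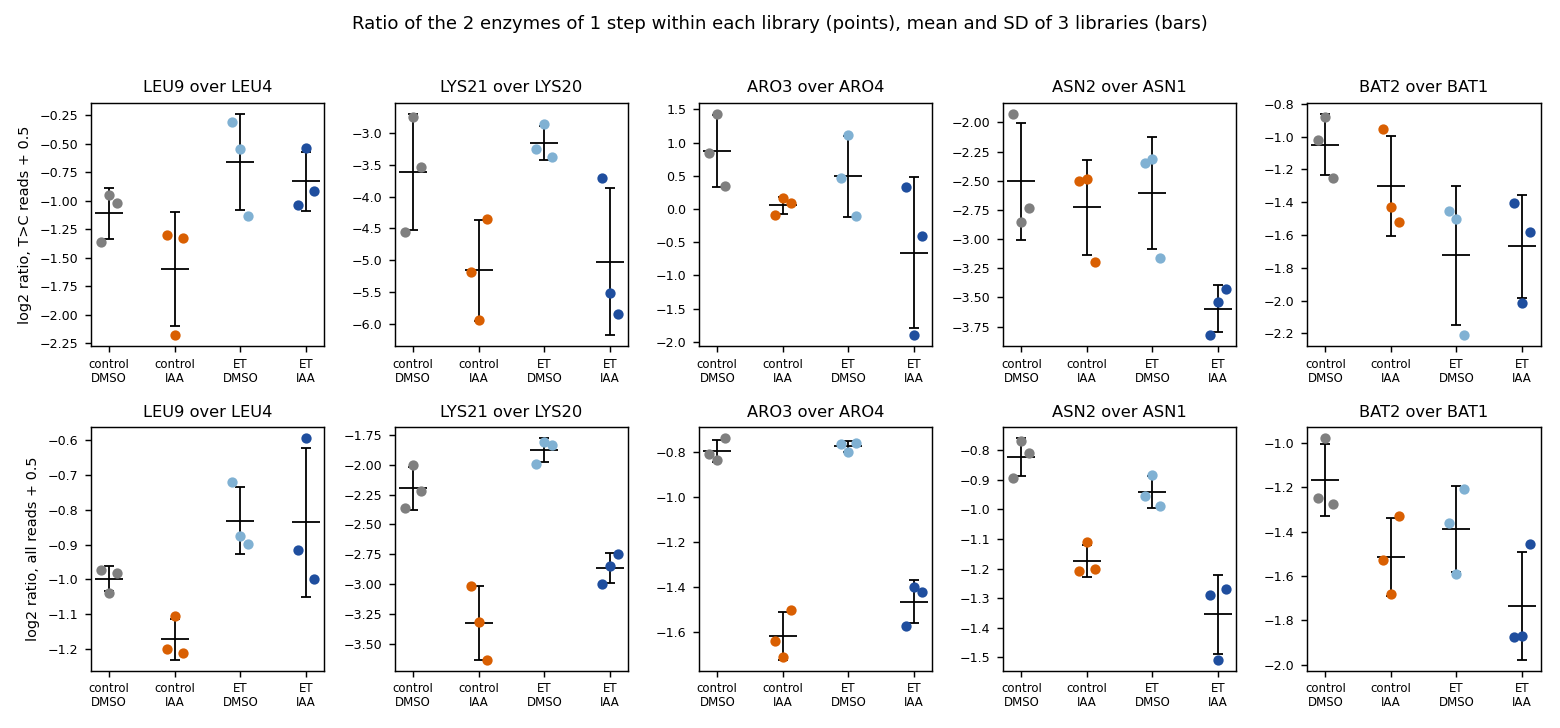
Log2 ratio of 2 isozyme genes within each library for 5 pairs (columns), in T>C reads (top) and all reads (bottom), with 0.5 added to each count, 3 libraries a group as points, and the mean and SD as bars. For LYS21 over LYS20, ARO3 over ARO4 and ASN2 over ASN1 all IAA points lie below all DMSO points in the bottom row, and the T>C ratios spread more widely.

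All reads stand for total RNA, which holds RNA made before the labelling. Per S. pombe read, 2 of the 42 rose in the control strain, among them ARG3, and 18 fell, against 2.2% and 74.2% of tested genes. For the ET strain, 3 rose, among them ARG1 and ARG3, and 20 fell, against 1.01% and 75.8%. The median log2 change was -0.24 and -0.27, against -1.13 and -1.03 over all tested genes. With size factors from all S. cerevisiae reads instead, 36 of the 42 were higher and 3 lower in each strain, against 47.8% and 28.3% of tested genes in the control strain and 44.8% and 25.4% in the ET strain. ARG3 had 173, 156 and 81.5 reads per 1000000 S. pombe reads with DMSO and 291, 308 and 239 with IAA in the control strain, and 150.4, 163 and 200.4 with DMSO and 236, 230.3 and 286 with IAA in the ET strain, with no overlap, and rose by 1.01 ± 0.22 (adjusted p = 8.3e-06) and 0.55 ± 0.22 (adjusted p = 0.015) on the log2 scale. ARG1 rose by 0.53 ± 0.21 (adjusted p = 0.015) in the ET strain, with 0.21 ± 0.20 (adjusted p = 0.36) in the control strain.

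Among the 42 tested genes the deepest losses of total RNA were in ARO7, TRP3 and HIS7. ARO7 had 659.5, 704 and 597 reads per 1000000 S. pombe reads with DMSO and 181, 171 and 199.7 with IAA in the control strain, and 696, 665 and 858 with DMSO and 197, 278 and 273 with IAA in the ET strain. The change was -1.83 ± 0.20 (adjusted p = 7.5e-19) and -1.57 ± 0.19 (adjusted p = 5.5e-15), with no overlap. TRP3 changed by -1.81 ± 0.20 (adjusted p = 2.9e-18) and -1.47 ± 0.20 (adjusted p = 3.3e-13), and HIS7 by -1.61 ± 0.20 (adjusted p = 1.3e-15) and -1.43 ± 0.19 (adjusted p = 5.3e-13). Of the genes not tested, HIS6 had a mean with IAA of 0.213 of that with DMSO in the control strain and 0.264 in the ET strain, and HIS2 of 0.263 and 0.382, where the ratio for ARO7 was 0.281 and 0.337. HIS6 had 371, 410.2 and 377 with DMSO and 97.4, 74.2 and 74.7 with IAA in the control strain, and 406, 427 and 559.5 with DMSO and 83.7, 145 and 139.8 with IAA in the ET strain.

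**Figure D5:**
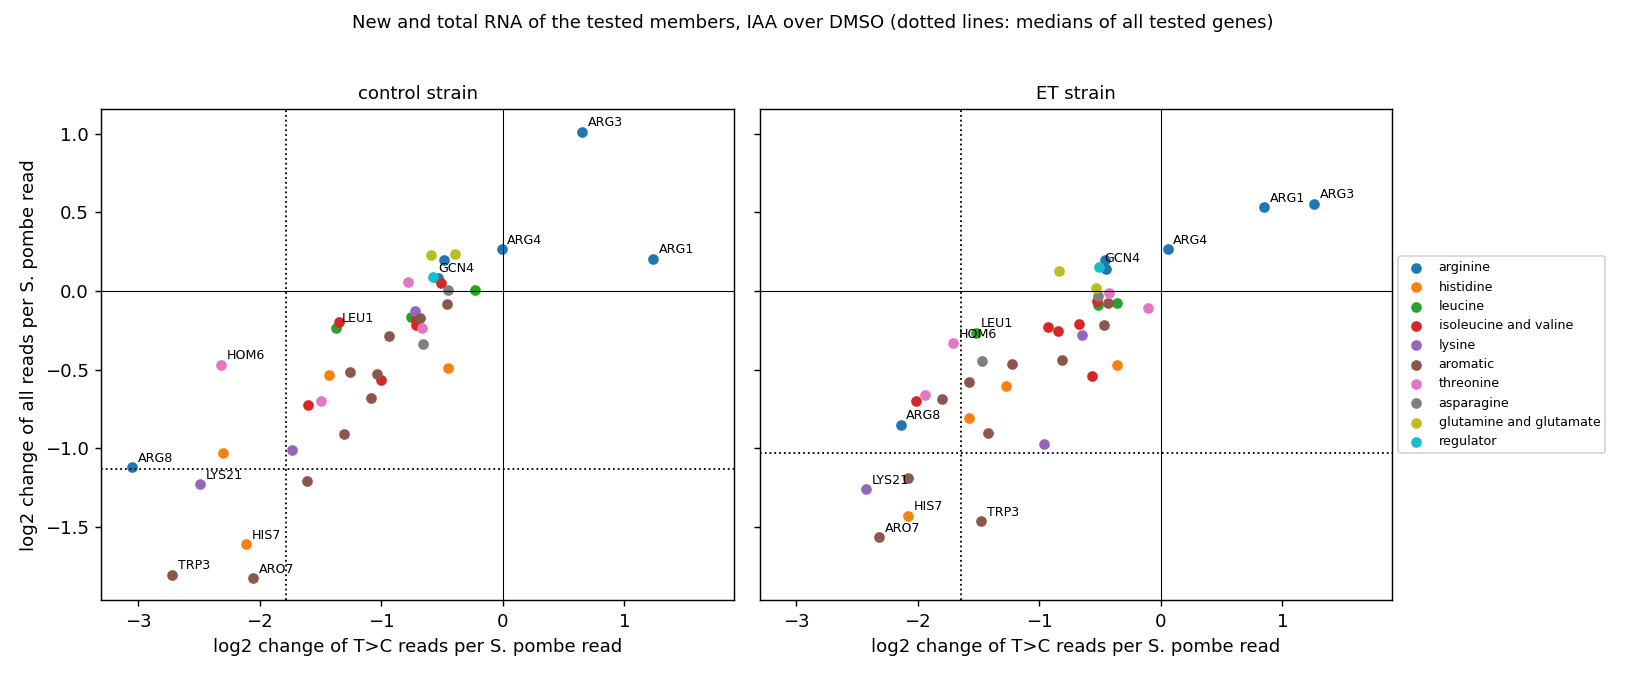
Log2 change of T>C reads (horizontal) and of all reads (vertical), both per S. pombe read, between IAA and DMSO for 41 of the tested genes, coloured by pathway, in the control strain (left) and the ET strain (right). ARG1 and ARG3 lie above 0 on both axes, and ARO7, HIS7 and LYS21 lie below the dotted medians of all tested genes on both axes.

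The labelled share, the percent of a gene's reads that are T>C reads, needs no scaling between libraries. It fell for 15 of the 42 in the control strain and 21 in the ET strain, against 38.5% and 38.3% of tested genes. It rose for 0 and 0 by edgeR, against 0.136% and 0.109%, and before adjustment 1 and 0 had p under 0.05 with a higher share. Their median log2 change was -0.56 and -0.56, against -0.66 and -0.59 over all tested genes, so that by this measure the 42 lay close to other genes. HOM6 had the deepest called fall in the ET strain and the deepest but ARG8 in the control strain. Its labelled share was 1.19, 1.11 and 0.953% with DMSO and 0.236, 0.197 and 0.479% with IAA in the control strain, and 1.30, 0.987 and 1.28% with DMSO and 0.573, 0.473 and 0.340% with IAA in the ET strain, with the groups apart (log2 change -1.82 ± 0.30, adjusted p = 2.7e-08 and -1.36 ± 0.25, adjusted p = 1.7e-06). HIS1 and HOM3, which rose in T>C reads, measured 0.03 and 0.12, and -0.42 and 0.01, with no call in either strain. Nor were ARG1, ARG3, ARG4 and LEU4 called in share. Other genes that rose in T>C reads in both strains fell in share in both. These were GCN4 (-0.66 and -0.66), ILV5 (-0.55 and -0.45), ASN1, GLN1, CPA1 and LYS20.

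The ET strain was compared with the control strain at each treatment, to ask whether these genes differ with Bdf1/2 present or lost. The strains differ in the TRP1 marker, a tryptophan synthesis gene, as well as in the ET domain, and these 2 differences cannot be told apart. In T>C reads edgeR and DESeq2 called 0 of the 42 between the strains with DMSO and 0 with IAA, where edgeR called 0.163% and 1.28% of tested genes. At an unadjusted p under 0.05 edgeR gave 4 and 1, and DESeq2 5 and 1. With DMSO the log2 difference, ET minus control, ran from -1.20 for ARG3 to 0.67 for ILV1, and with IAA from -0.89 for ASN2 to 1.21 for ARG8, and the median standard error was 0.28 and 0.36. GLN1 had the smallest p with DMSO (0.53 ± 0.18, adjusted p = 0.23). The difference between the strains in the response to IAA was tested by an interaction term, which was called for 0 of the 42 by edgeR and DESeq2 against 0.109% of tested genes by edgeR, with 1 at an unadjusted p under 0.05 by each tool, ASN2 (-0.996 ± 0.46, adjusted p = 0.78). The interaction estimates ran from -0.996 for ASN2 to 1.12 for TRP3 with a median standard error of 0.45, and differences within such errors were not detectable at this depth. The falls called in only 1 strain, such as TRP3, ARG8 and HOM6 in the control strain, were therefore not shown to differ between the strains.

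In all reads per S. pombe read, LEU1 was higher in the ET strain with IAA (0.45 ± 0.16, adjusted p = 0.043), the only call among the 42, where 16.5% of tested genes were called. With median-of-ratios size factors it was not called, and 13 of the 42 were lower, against 18.2% of tested genes. Leaving out single libraries gave 0 to 6 of the 42 higher. LEU1 had 2204, 2168 and 1989 in the control strain and 2698, 2815 and 3185 in the ET strain with IAA. With DMSO its difference was as large (0.48, the highest of the 42, not called), on means of 2495 in the control strain and 3488 in the ET strain. The LEU1 difference was therefore not particular to depleted cells. Between the strains with DMSO, 0 were called by edgeR, with 4 at an unadjusted p under 0.05, against 0.354% of tested genes. ARG1 came closest there, with 366, 275 and 328 in the control strain and 191, 199 and 177 in the ET strain, which did not overlap (-0.77 ± 0.21, adjusted p = 0.056). The labelled share of the 42 differed between the strains for 0 with DMSO and 0 with IAA by edgeR, with 4 and 3 at an unadjusted p under 0.05, against 0.435% and 4.32% of tested genes.

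The responses were also set beside the motifs. Of the 42, 21 had TGACTC in the promoter window, and in the control strain 5 of these rose and 2 fell with a median log2 change of 0.23, whereas of the 21 without it 11 rose and 1 fell with a median of 0.60. Over all tested genes with a promoter, 31 of 272 with TGACTC and 421 of 3247 without it rose in the control strain, and the medians were -0.49 and -0.52. In the ET strain 7 of the 21 with it rose and 3 fell, with a median of 0.21. Of the 21 without it 8 rose and 2 fell there, with a median of 0.52. Over all tested genes, 24 of 272 with it and 348 of 3247 without it rose in the ET strain, with medians of -0.54 and -0.51. With the longer TGACTCA the order of the medians in the control strain turned, 0.60 for 17 genes with it and 0.38 for 25 without, while that of the counts did not, since 5 of the 17 rose and 2 fell, and 11 of the 25 rose and 1 fell. Of all tested genes, 14 of 93 with TGACTCA and 438 of 3426 without it rose in the control strain, with medians of -0.43 and -0.52. In the ET strain the order of the counts turned as well. There 7 of the 17 with TGACTCA rose and 1 fell (median 0.54), and 8 of the 25 without it rose and 4 fell (median 0.34). Over all tested genes in that strain, 10 of 93 with it and 362 of 3426 without it rose, with medians of -0.45 and -0.51. The 22 genes with TATAAA had medians of 0.65 and 0.59 in the control and ET strains, and the 20 without it 0.14 and -0.11. The medians over all tested genes with and without TATAAA were -0.41 and -0.60 in the control strain and -0.42 and -0.56 in the ET strain. These are descriptions without a test.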

How the data were processed

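The 12 libraries in 4 groups of 3 were analysed as deposited. Per the labels and the study's methods, the authors trimmed 3′ mRNA-seq reads with fastp 0.23.2 and bbduk, aligned them with SLAM-DUNK 0.4.3 to S. cerevisiae R64 (genes extended by 250 bp) and S. pombe ASM294v2, and deposited whole-number counts of reads and of T>C reads (at least 2 conversions) for each gene. Reads lie near 3′ ends, so levels were not compared between genes. The members and lists were chosen with earlier results of these data known. Genes with a T>C read in each library (3677) were fitted by edgeR 4.0.16 in R 4.3.3 (quasi-likelihood test, prior count 0.125, Benjamini-Hochberg adjustment over all tested genes, threshold 0.05) with all 12 libraries. T>C counts used median-of-ratios size factors of all S. cerevisiae reads, all reads used S. pombe totals, and the labelled share used each gene's own reads as offset. Values after ± are standard errors of log2 changes unless marked SD. DESeq2 1.42.0, other scalings and filters, a replicate block and single libraries left out were alternatives. Named were up to 5 rises and 5 falls a comparison past the threshold, first enzymes, isozyme pairs and GCN4. Other genes were named after their values were seen. A gene of the list is counted but not reported here by name or drawn. The fits were tested on simulated data. For depletion in the control strain, edgeR recovered 14%, 50%, 75% and 78.3% of changes of 1.5, 2, 3 and 4-fold, with 4 false calls. For the interaction it recovered 4.26%, 13.3%, 38.6% and 72.3%, with 4 false calls. Small changes were therefore often missed in the simulations. These changed 44 to 50 genes at each fold, of 3531 and 3533 genes run. In the data 14.3% of tested genes rose and 28.7% fell after depletion in the control strain. The adjusted threshold depends on how many genes change, so the rates do not give the sensitivity of the depletion comparisons.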

Additional observations from a re-analysis of the deposited data

How the results depend on the processing

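The direction of many T>C changes depends on the scaling. With sums of S. cerevisiae reads the 42 genes had 2 rises and 22 falls in the control strain and 3 and 21 in the ET strain, and with S. pombe reads 1 and 24, and 1 and 27. TMM scaling gave 0 falls in either strain, DESeq2 gave 1 and 2, and no filter gave 3 falls in the ET strain. With sums, 1 gene was higher in the ET strain after depletion. For all reads, median-of-ratios size factors gave 36 rises and 3 falls in each strain, 1 gene lower between the strains without depletion, and 0 higher and 13 lower after it.

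Changes that turned negative with sums of S. cerevisiae reads and with S. pombe reads were, in the control strain, ARO4 -0.28 and -0.46, LYS20 -0.55 and -0.72, ARO3 -1.12 and -1.30, GCN4 -0.40 and -0.58, HOM3 -0.48 and -0.66, HIS1 -0.28 and -0.45, ARG56 -0.30 and -0.48, ASN2 -0.49 and -0.66, BAT1 -0.54 and -0.72, BAT2 -0.83 and -1.0, ILV2 -0.53 and -0.71, LEU4 -0.059 and -0.23, LEU9 -0.57 and -0.75, ASN1 -0.27 and -0.45. In the ET strain they were ARO4 -0.23 and -0.47, LYS20 -0.40 and -0.65, GCN4 -0.27 and -0.51, HIS1 -0.11 and -0.36, ARG56 -0.24 and -0.46, BAT1 -0.39 and -0.67, BAT2 -0.33 and -0.57, ILV2 -0.59 and -0.85, LEU4 -0.11 and -0.36, LEU9 -0.28 and -0.52, ASN1 -0.26 and -0.51. With S. pombe reads alone ARG4 turned to -0.0065 in the control strain and HOM3 to -0.11 in the ET strain. ARO3, near 0, also turned to -0.077 without control DMSO C, to -0.0045 without control IAA A and to -0.062 without control IAA C, and in the ET strain to 0.067 with TMM and 0.14 without ET IAA B, where leaving out single libraries gave -0.60 to 0.14. ASN2 turned to 0.017 with TMM in the ET strain. The size factors of all S. cerevisiae reads were 1.37 to 1.59 with DMSO and 0.449 to 0.631 with IAA in the control strain. In the ET strain they were 1.45 to 1.83 and 0.685 to 0.892. Factors from S. pombe reads were 0.936 to 1.07 and 0.738 to 1.06 in the control strain. In the ET strain those were 0.795 to 1.20 and 1.01 to 1.13. Scaling by S. pombe reads thus moved all genes down by about the same amount. Size factors of all reads take out by construction a fall in total RNA that most genes share, and S. pombe reads do not. What lay behind the lower total per S. pombe read was not tested.

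Leaving out each library gave 12 to 16 rises and 0 to 3 falls in the control strain and 12 to 16 and 1 to 6 in the ET strain for T>C reads, with the median above that of all genes by 0.88 to 1.04 and 0.80 to 0.92. Between strains that difference was -0.12 to -0.014 without and -0.21 to -0.12 after depletion. For all reads there were 1 to 2 rises and 16 to 19 falls, and 1 to 4 and 16 to 24, with 0 to 1 lower between the strains without depletion and 0 to 6 higher and 0 to 1 lower after it. The labelled share fell for 13 to 15 and 14 to 21, and 0 to 1 were higher between strains after depletion.

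The labels do not say that a replicate letter links samples, and same-letter libraries of a strain did not deviate together (correlations -0.013 to 0.050). With the replicate letter as a block within strain, T>C reads gave 15 rises and 3 falls in the control strain and 15 and 5 in the ET strain, and all reads 5 and 25, and 4 and 26. The block could not give the strain comparisons, for which a block across strains was added after seeing the data. It gave 1 gene lower in all reads without depletion. Depth limits single genes most, since a library held 1169 to 3025 T>C reads of the 48 genes.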

Other observations

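The conversion rate over all T positions, which uses no read threshold, was higher in the 48 genes than over all genes in every group. In the control strain it was 2.71 ± 0.14 conversions per 1000 T (SD, n = 3) with DMSO and 1.82 ± 0.12 with IAA, against 1.81 ± 0.04 and 0.90 ± 0.05 over all genes. In the ET strain it was 3.12 ± 0.31 and 2.15 ± 0.10, against 2.15 ± 0.21 and 1.18 ± 0.07. No test was run on these rates, which are 1 value a library for each set and do not rank the 48 among single genes.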
